A study of Homo sapiens with 4 samples.

Results

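The mRNA of 10 amino acid transporter genes was followed: SLC7A5, SLC3A2, SLC7A11, SLC38A5, SLC36A1, SLC1A5, SLC38A1, SLC38A2, SLC7A1 and SLC6A9. They were taken by symbol from the deposited gene tables. All 10 were found, each under 1 gene identifier, among 22187 genes in all. The data are RNA sequencing of the human multiple myeloma cell lines KMS18 and KMS28BM, which are of plasma cell origin and both carry the t(4;14) translocation. The labels call the lines K18 and K28BM. In each line a control culture (labelled Luc) and a culture in which PKCα, the kinase encoded by PRKCA, was stably knocked down gave 1 library apiece, so there were 4 groups of 1 library and every library carried the translocation. Where values come in pairs, the control is given before the knockdown. The sequence, promoter and clonality of the knockdown construct are not given in the sources used here.

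Amino acids are polar and cross membranes through carriers of the SLC families. SLC7A5 (LAT1) imports leucine and other large neutral amino acids, and SLC7A11 (xCT) imports cystine in exchange for glutamate. Both are light chains that reach the cell surface bound to the same heavy chain, the glycoprotein SLC3A2 (4F2hc or CD98). SLC1A5 (ASCT2) exchanges glutamine and other small neutral amino acids, the SLC38 carriers take up glutamine and small neutral amino acids with sodium, and SLC7A1 (CAT1) carries cationic amino acids such as arginine. SLC36A1 (PAT1) exports small amino acids with protons from the lysosome, and SLC6A9 (GLYT1) takes up glycine. Plasma cells make much secreted protein and need a large amino acid supply. Several of these genes are known targets of ATF4, the transcription factor of amino acid shortage, of MYC, or, for SLC7A11, of NRF2.

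The start regions of the members are shown because several members moved together, and because these 3 factors bind short, known motifs. RefSeq windows of 250 bases before to 50 bases after an annotated start (GRCh38.p14) matched 9 of the 10 members by symbol, in 15 windows, since SLC3A2 and SLC1A5 have 3 windows and SLC36A1 and SLC38A1 have 2. SLC7A11 was not matched. Both strands were searched for TGATGNAAN, the element bound by C/EBP and ATF4 dimers, for CACGTG, the E-box bound by MYC and MAX, and for TGACNNNGC, the antioxidant response element bound by NRF2. TGATGCAA, a narrower form that lies within TGATGNAAN, was counted too, and no other motifs overlapped in the windows printed. Which start the cells used was not determined here.

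Capitals mark the matches in the windows printed, each read 5′ to 3′ on the strand of the gene. In SLC7A5 (chr16:87869458-87869757, minus strand) they are an E-box and an antioxidant element. In SLC3A2 (chr11:62881449-62881748, plus strand) they are an antioxidant element and, on the other strand, TGATGTAAG. In SLC38A5 (chrX:48470211-48470510, minus strand) there is 1 E-box, and in SLC36A1 (chr5:151447353-151447652, plus strand) there are 2. In the SLC1A5 window printed (chr19:46784765-46785064, minus strand) the match is TGATGCAAG. Windows at the 5′ end of the annotated gene had 0 matches in SLC1A5 (chr19:46788545-46788844), SLC3A2 (chr11:62855859-62856158) and SLC36A1 (chr5:151436796-151437095). The matches of SLC1A5, SLC3A2 and SLC36A1 therefore all come from internal windows.
SLC7A5: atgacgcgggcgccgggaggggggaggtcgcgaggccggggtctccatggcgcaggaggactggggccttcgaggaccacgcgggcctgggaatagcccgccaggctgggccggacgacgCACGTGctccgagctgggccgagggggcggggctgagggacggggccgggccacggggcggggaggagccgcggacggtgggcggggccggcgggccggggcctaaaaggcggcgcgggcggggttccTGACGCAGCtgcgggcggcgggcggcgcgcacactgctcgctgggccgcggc
SLC3A2: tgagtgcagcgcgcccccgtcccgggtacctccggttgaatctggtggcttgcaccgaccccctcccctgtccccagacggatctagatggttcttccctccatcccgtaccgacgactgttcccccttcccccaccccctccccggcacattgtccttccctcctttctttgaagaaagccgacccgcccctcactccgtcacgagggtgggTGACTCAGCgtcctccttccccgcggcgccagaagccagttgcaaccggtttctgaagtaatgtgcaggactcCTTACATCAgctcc
SLC38A5: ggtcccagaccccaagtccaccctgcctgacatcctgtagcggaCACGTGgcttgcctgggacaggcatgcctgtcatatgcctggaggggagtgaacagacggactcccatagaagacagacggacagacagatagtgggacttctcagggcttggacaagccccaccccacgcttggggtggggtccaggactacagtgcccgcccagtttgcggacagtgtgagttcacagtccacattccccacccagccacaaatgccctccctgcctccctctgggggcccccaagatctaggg
SLC36A1: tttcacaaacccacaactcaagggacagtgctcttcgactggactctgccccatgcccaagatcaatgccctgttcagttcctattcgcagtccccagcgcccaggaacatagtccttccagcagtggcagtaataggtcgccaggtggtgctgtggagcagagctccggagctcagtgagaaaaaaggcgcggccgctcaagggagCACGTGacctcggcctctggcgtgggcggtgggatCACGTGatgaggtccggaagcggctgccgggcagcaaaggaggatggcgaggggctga
SLC1A5: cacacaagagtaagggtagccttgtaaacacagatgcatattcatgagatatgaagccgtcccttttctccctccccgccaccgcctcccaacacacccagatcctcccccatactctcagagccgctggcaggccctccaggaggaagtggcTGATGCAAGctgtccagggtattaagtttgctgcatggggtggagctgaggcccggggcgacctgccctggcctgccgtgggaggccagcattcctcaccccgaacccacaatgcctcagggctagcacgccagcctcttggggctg

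The E-box was found in 4 of 9 members (SLC7A5, SLC38A5, SLC36A1 and SLC1A5), in 4 of their 15 windows (26.7%), against 7.3% of all 35116 RefSeq windows of the same length. TGATGNAAN was found in 4 members (SLC3A2, SLC1A5, SLC38A1 and SLC7A1) and 26.7% of their windows, against 3.6% of all windows. The narrower TGATGCAA was found in SLC1A5 alone of the 9, against 0.9% of all windows. TGACNNNGC was found in 4 members (SLC7A5, SLC3A2, SLC1A5 and SLC7A1) and 26.7% of windows, against 13.3% of all. The members that carry an E-box include genes that were lower, higher and divided between the lines after knockdown. These letters describe the windows and do not show binding.

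The libraries held 37940949 to 39507281 expected counts, the authors' estimated read numbers per gene. PRKCA stood at 19.7% of its control FPKM in the KMS18 knockdown library and at 22.4% in that of KMS28BM. FPKM are fragment numbers scaled by the listed gene length and by library size, so levels of different genes can be set side by side. Of 10 plasma cell markers 9 were at 1 FPKM or more in every library. CD27 was not listed in any of the 4 and was counted as 0. Their summed level was lower after knockdown, at 2103 and 1291 FPKM (KMS18) and 2009 and 1197 FPKM (KMS28BM), and its part in the results on the transporters was not tested. SDC1, TNFRSF17, IRF4, XBP1, SLAMF7, MZB1 and POU2AF1 were each called lower (edgeR adjusted p from 0.00671 to 0.0338), against 5.25% of all genes tested. PRDM1 was not called (edgeR adjusted p = 0.12). CD38 went the other way, at 26.4 and 29.2 FPKM (KMS18) and 4.99 and 5.99 FPKM (KMS28BM). In counts it rose by 0.59 in log2 terms (edgeR, SE 0.10, adjusted p = 0.0193). Differences of log2(FPKM + 1) were smaller, at 0.14 (KMS18) and 0.22 (KMS28BM). The listed mean length of CD38 went from 3238 to 4439 bases in KMS18 and from 2498 to 3386 bases in KMS28BM. The 5 T cell markers, most of whose sum was CD3E, summed to 9.84 and 26.5 FPKM (KMS18) and to 1.17 and 3.52 FPKM (KMS28BM), with CD3D listed at 0 in both KMS28BM libraries. Myeloid, stromal and erythroid markers summed to 0.07 to 2.13 FPKM, and B cell markers to 5.73 to 14.5 FPKM.

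In the KMS18 control the transporters ranged from 3.29 FPKM (SLC36A1) to 210.2 FPKM (SLC7A5), and in the KMS28BM control from 4.43 FPKM (SLC36A1) to 311 FPKM (SLC7A5). SLC7A5 was first of the 10 in both control libraries and ranked 4 in both knockdown libraries, where SLC1A5 was first. SLC7A5, SLC1A5, SLC3A2 and SLC38A5 filled the first 4 places in all 4 libraries. The lowest 3 in KMS18 were SLC6A9, SLC7A11 and SLC36A1. With 1 library per group the order has no replicate check, and neighbours such as SLC38A5 (72.0 FPKM) and SLC7A5 (71.9 FPKM) in the KMS18 knockdown cannot be ordered. The 10 genes together took 0.287% and 0.161% of all counts in KMS18 and 0.436% and 0.342% in KMS28BM, and SLC7A5 made 24.9% and 15.3% of their summed FPKM in the KMS18 pair and 22.8% and 14.3% in KMS28BM.

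**Figure D1:**
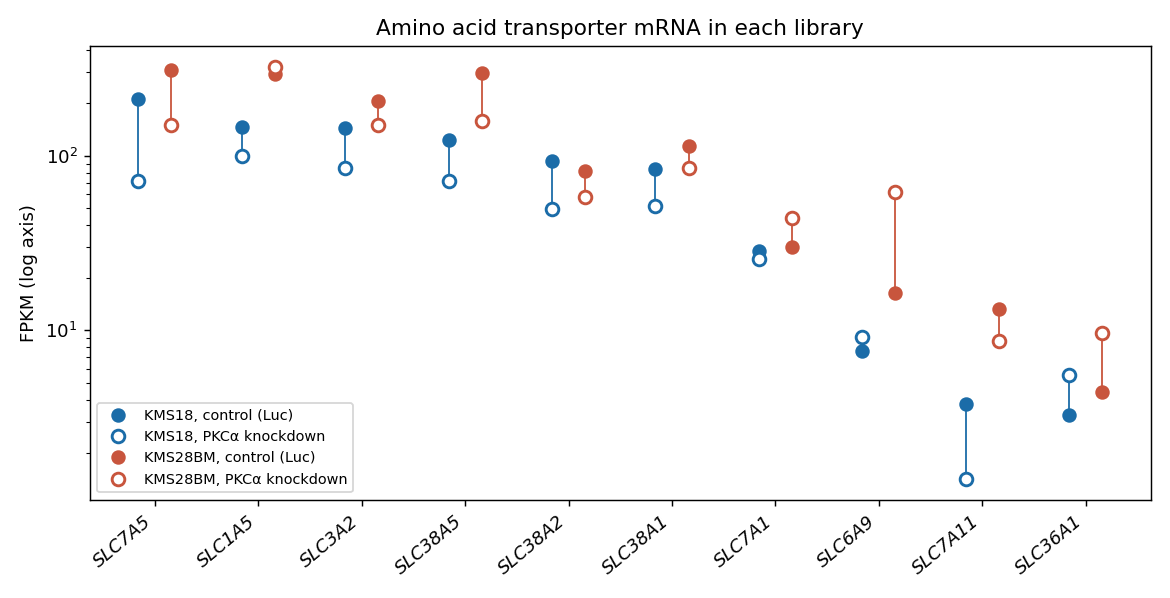
FPKM (log axis) of each transporter in the 4 libraries, 1 point per library, with filled points for the control and open points for the PKCα knockdown, and a line joining the libraries of one cell line. SLC7A5 went from 210.2 to 71.9 FPKM (KMS18) and from 311 to 150.0 FPKM (KMS28BM), while SLC6A9 and SLC36A1 lay higher in both knockdown libraries.

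The comparison of knockdown with control asks how transporter mRNA differed when PKCα was lowered. Over both lines 6 of the 10 fell (SLC7A5, SLC7A11, SLC38A5, SLC3A2, SLC38A1 and SLC38A2) and 1 rose (SLC36A1) by edgeR's quasi-likelihood test at an adjusted p of 0.05, where 5.25% of 14870 genes tested fell and 3.57% rose (8.82% in either direction). Scaling by library totals alone turned the balance over all genes, from 781 lower and 531 higher to 407 lower and 480 higher, and left 5 members lower and 1 higher. All 10 members passed the filter on low counts. The median log2 difference of the 10 was -0.60, against 0.02 over all genes tested. The members were chosen with such results known, so these counts describe them and do not set them apart from other genes. In FPKM, 6 were lower in the knockdown library of both lines (26.3% of genes tested), 2 were higher in both (40.1%) and 2 moved in opposite directions (28.7%). The lines are the only replication. Each p reflects the size of the change and how alike the lines moved. With 1 residual degree of freedom against a prior of 5.85, its error term comes mostly from other genes. A small p therefore does not show that the lines moved by like amounts. Less RNA per cell and fewer cells expressing a gene cannot be told apart in such bulk libraries. Without the cell line in the model edgeR called 0 members (1 at an unadjusted p under 0.05), and with no filter on low counts it called SLC7A5, SLC38A5 and SLC36A1 only.

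**Figure D2:**
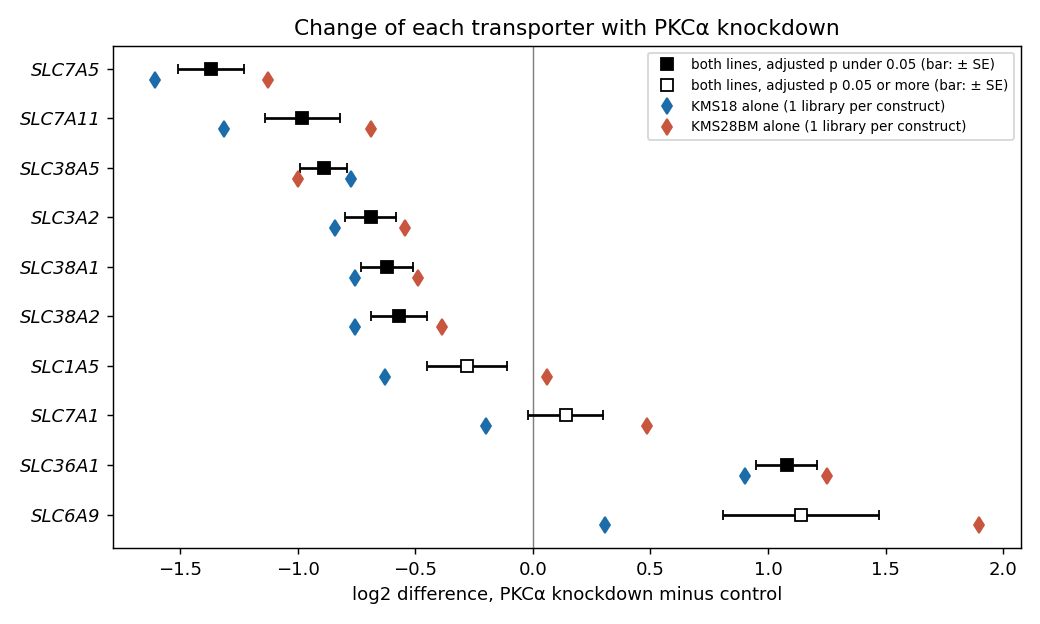
Log2 difference, PKCα knockdown minus control, of each transporter. Squares give the edgeR estimate over both lines with its SE (filled where the adjusted p is under 0.05), and diamonds give each line alone on TMM-scaled log2 CPM. SLC1A5 and SLC7A1 have diamonds on both sides of 0.

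SLC7A5 (ENSG00000103257, chromosome 16, 87830023 to 87869488, minus strand, GRCh38), the leucine importer, was at 210.2 and 71.9 FPKM (KMS18) and 311 and 150.0 FPKM (KMS28BM). These levels rested on 35937 and 12278 expected counts in KMS18 and 55181 and 26389 in KMS28BM. Knockdown left 34.2% of the control level in KMS18 and 48.3% in KMS28BM, and both knockdown libraries lay below both controls. The log2 ratio of its CPM, counts scaled to the library total, was -1.55 in KMS18 (exact 95% interval -1.58 to -1.52, counting error only) and -1.05 in KMS28BM (-1.07 to -1.03). Over both lines it fell by 1.37 in log2 terms (edgeR, SE 0.14, adjusted p = 0.0056), the largest drop of the 10. A near-identical pseudogene, SLC7A5P2, held 28, 36, 6 and 18 counts in the 4 libraries (KMS18 control and knockdown, then KMS28BM), beside at least 12278 for SLC7A5.

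SLC3A2 (chromosome 11, 62856102 to 62888875, plus strand), the heavy chain that carries SLC7A5 and SLC7A11 to the surface, was at 144 and 84.95 FPKM (KMS18) and 205 and 150.5 FPKM (KMS28BM). It was lower after knockdown in both lines, but the lines overlapped: the KMS28BM knockdown library lay above the KMS18 control in FPKM and below it on TMM-scaled CPM (261 against 275). The fall was 0.69 (edgeR, SE 0.11, adjusted p = 0.0154), smaller than that of SLC7A5 in each line. The FPKM of SLC7A5 was 1.46 times that of SLC3A2 in the KMS18 control and 0.846 times in the knockdown, and 1.52 and 0.996 times in KMS28BM. SLC7A5 mRNA thus went from above that of SLC3A2 to below it in KMS18, and to about its level in KMS28BM. SLC3A2 also pairs with other light chains, of which SLC7A6 was at 19.5 and 19.8 FPKM (KMS18) and 22.2 and 26.5 FPKM (KMS28BM), so the ratio is not that of all light chains. The difference of the 2 genes' changes was not tested.

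SLC7A11 (chromosome 4, 138164097 to 138242349, minus strand), the cystine importer, was a minor light chain in these cells, at 3.79 and 1.41 FPKM (KMS18) and 13.3 and 8.74 FPKM (KMS28BM). Its counts were 1211 and 506, then 4834 and 3134. The control was higher in each line, and both KMS28BM libraries lay above both KMS18 libraries. Its FPKM was 0.026 and 0.017 times that of SLC3A2 in KMS18 and 0.065 and 0.058 times in KMS28BM. SLC7A11 fell by 0.98 over both lines (edgeR, SE 0.16, adjusted p = 0.0153), with a log2 ratio of CPM of -1.26 in KMS18 (-1.41 to -1.11) and -0.61 in KMS28BM (-0.68 to -0.54). An antisense gene, SLC7A11-AS1, overlaps its exons, and the library kit did not keep strand, so reads of the pair cannot be told apart.

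**Figure D3:**
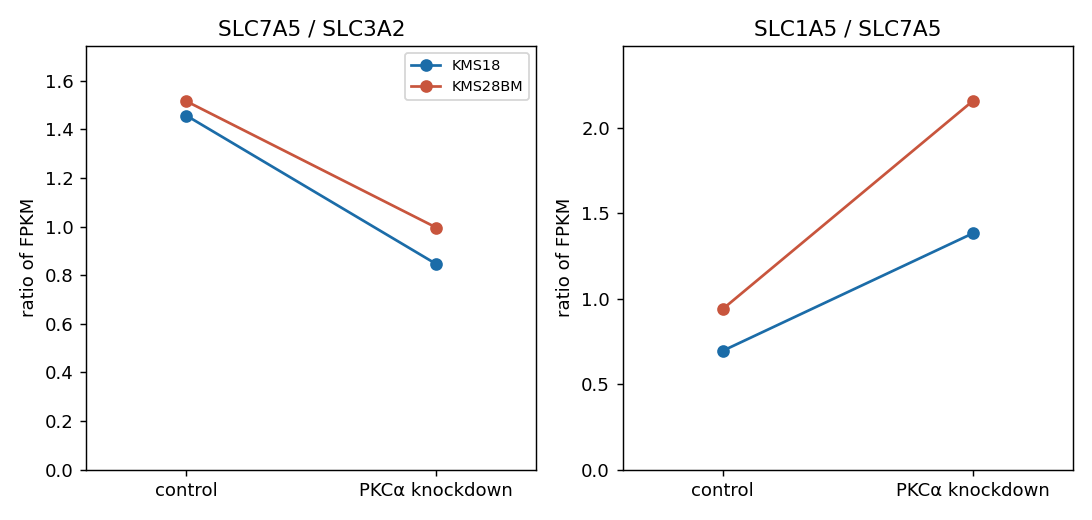
Ratio of FPKM in each library (1 point per library, lines join the libraries of one cell line, axes start at 0), for SLC7A5 over its heavy chain SLC3A2 (left) and for SLC1A5 over SLC7A5 (right). The first ratio is lower in both knockdown libraries (0.846 and 0.996) than in both controls (1.46 and 1.52), and the second is higher (1.38 and 2.16 against 0.695 and 0.939).

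The 3 sodium-coupled SLC38 carriers all fell. SLC38A5 (SNAT5; chromosome X, 48458537 to 48470256, minus strand), which carries glutamine, histidine and other neutral amino acids, went from 123 to 72.0 FPKM (KMS18) and from 296 to 159 FPKM (KMS28BM). Its KMS28BM knockdown library lay above the KMS18 control. It was the member with the largest drop after SLC7A5 and SLC7A11, at 0.89 (edgeR, SE 0.10, adjusted p = 0.00794), and the only one of the 6 whose drop was larger in KMS28BM (53.6% of control) than in KMS18 (58.4%). SLC38A1 (SNAT1; chromosome 12, 46183063 to 46270017, minus strand) went from 83.5 to 51.2 FPKM and from 114 to 84.9 FPKM, a drop of 0.62 (edgeR, SE 0.11, adjusted p = 0.0221). Its KMS28BM knockdown library was close to the KMS18 control, at 84.9 against 83.5 FPKM, and the order turned on TMM-scaled CPM (495 against 551).

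SLC38A2 (SNAT2; chromosome 12, 46358189 to 46372867, minus strand), which lies beside SLC38A1 and is known to be induced when amino acids are short, went from 92.8 to 49.3 FPKM (KMS18) and from 81.8 to 58.2 FPKM (KMS28BM). Both knockdown libraries lay below both controls. It fell by 0.57 (edgeR, SE 0.12, adjusted p = 0.0329), and the call was lost with scaling by library totals alone (adjusted p = 0.0723). Its FPKM and counts moved by different amounts, and the listed mean transcript length went from 3177 to 3679 bases in KMS18 and from 3406 to 3847 bases in KMS28BM. The log2 ratio of its CPM was -0.70 in KMS18 (-0.74 to -0.65) and -0.31 in KMS28BM (-0.35 to -0.27), against differences of log2(FPKM + 1) of -0.90 and -0.48.

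SLC1A5 (ASCT2; chromosome 19, 46774883 to 46788594, minus strand), the glutamine exchanger, did not pass the test (log2 difference -0.28, edgeR, SE 0.17, adjusted p = 0.336). It was at 146 and 99.4 FPKM (KMS18) and 292 and 323 FPKM (KMS28BM), so the knockdown library was the lower one in KMS18 and the higher one in KMS28BM. The log2 ratio of CPM was -0.57 (-0.61 to -0.54) in KMS18 and 0.14 (0.12 to 0.16) in KMS28BM. On TMM-scaled counts the KMS28BM value was 0.06. Against SLC7A5, SLC1A5 mRNA went from 0.695 to 1.38 times its level in KMS18 and from 0.939 to 2.16 times in KMS28BM. Exons of an antisense gene overlap those of SLC1A5.

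SLC7A1 (CAT1; chromosome 13, 29509410 to 29595688, minus strand), the arginine and lysine carrier, was at 28.5 and 25.7 FPKM (KMS18) and 29.8 and 43.9 FPKM (KMS28BM). The control libraries of the lines were close, and the KMS28BM knockdown library stood above the other 3. Over both lines it differed by 0.14 (edgeR, SE 0.16, adjusted p = 0.629). The log2 ratio of CPM was -0.14 in KMS18 (-0.19 to -0.09) and 0.56 in KMS28BM (0.52 to 0.60). The difference between the lines has no test for SLC1A5 or SLC7A1, since each line has 1 library per construct.

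SLC36A1 (PAT1; chromosome 5, 151437046 to 151492381, plus strand), the lysosomal exporter, was the member that rose. It went from 3.29 to 5.53 FPKM (KMS18) and from 4.43 to 9.71 FPKM (KMS28BM), on 494 and 963 and on 637 and 1589 counts, and both knockdown libraries lay above both controls. Over both lines it rose by 1.08 in log2 terms (edgeR, SE 0.13, adjusted p = 0.00926). The rise was larger in counts (log2 ratio 0.96, 0.80 to 1.12, in KMS18 and 1.33, 1.20 to 1.47, in KMS28BM) than in FPKM (0.61 and 0.98 as differences of log2(FPKM + 1), or 1.68-fold and 2.19-fold). The listed mean length of SLC36A1 went from 3984 to 4616 bases in KMS18 and from 3685 to 4219 bases in KMS28BM. A mean length at least 1.1 times that of the control in both lines was listed for 290 of 12591 genes with 10 counts or more in every library (2.30%), SLC36A1 and SLC38A2 among them. The 1.1 limit was chosen after these lengths were seen.

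SLC6A9 (GLYT1; chromosome 1, 43991500 to 44031467, minus strand), the glycine carrier, was higher in the knockdown library of both lines, but by very unequal amounts. It was at 7.58 and 9.22 FPKM (KMS18) and 16.4 and 62.0 FPKM (KMS28BM). In the KMS28BM knockdown it passed SLC38A2 and SLC7A1 to stand sixth of the 10. The log2 ratio of CPM was 0.37 in KMS18 (0.23 to 0.50) and 1.98 in KMS28BM (1.90 to 2.05). The estimate over both lines, 1.14, had the largest SE of the members (0.33) and did not pass the test (edgeR adjusted p = 0.0798). Exons of CCDC24 on the other strand overlap those of SLC6A9, and CCDC24 was at 2.36 and 2.70 FPKM in the KMS18 libraries and at 0.57 and 0.58 FPKM in those of KMS28BM.

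Between the lines, 8 of the 10 were higher in KMS28BM by the same edgeR fit and 0 were lower, where 30.6% of genes tested were higher and 32.3% lower (62.9% in either direction). DESeq2 and limma also called 0 lower, and the 8 members at an unadjusted p under 0.05 in edgeR were those called higher. This test treats the constructs as the replicates and covers 2 cell lines, so it describes KMS28BM and KMS18 only. SLC7A11 differed by 2.17 in log2 terms (SE 0.16, adjusted p = 4.25e-05). SLC6A9 differed by 1.87 (SE 0.33, adjusted p = 0.00252), but by 1.05 between the controls alone and 2.64 between the knockdown libraries alone. SLC1A5 was higher at 1.26 (SE 0.17, adjusted p = 0.000645) and SLC38A5 at 1.098 (SE 0.10, adjusted p = 0.000131). SLC7A5 (0.73), SLC3A2 (0.61), SLC38A1 (0.47) and SLC36A1 (0.42) were called with adjusted p from 0.00255 to 0.0287, and the call of SLC36A1 was lost with DESeq2 (adjusted p = 0.121) and with no filter on low counts (edgeR adjusted p = 0.0579). Its difference was 0.23 between the controls alone and 0.59 between the knockdown libraries alone. Without construct in the model edgeR called SLC7A11, SLC1A5 and SLC6A9 only, and SLC7A5 (adjusted p = 0.446), SLC3A2 (0.214), SLC38A5 (0.0754), SLC38A1 (0.299) and SLC36A1 (0.473) were lost.

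SLC7A1 (0.34, edgeR, SE 0.16, adjusted p = 0.105) and SLC38A2 (0.03, edgeR, SE 0.12, adjusted p = 0.853) did not pass the test between lines. For SLC7A1 the controls of the lines differed by -0.001 on TMM-scaled log2 counts and the knockdown libraries by 0.683. In FPKM, both KMS28BM libraries lay above both KMS18 libraries in 7 of the 10 (39.7% of genes tested) and below them in 0 (33.7%). On the TMM-scaled CPM of the fit this held for 4 (36.1%), SLC7A11, SLC38A5, SLC1A5 and SLC6A9, again with 0 below (38.1%). SLC3A2, SLC38A1 and SLC7A1 overlapped on that scale, and SLC7A5, SLC36A1 and SLC38A2 overlapped on both.

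Other genes of amino acid supply were read from 6 lists. Over all genes tested edgeR called 5.25% lower and 3.57% higher, with 3919 of 14870 at an unadjusted p under 0.05. With no filter on low counts edgeR called 0 genes of these lists (27 at an unadjusted p under 0.05), and without the cell line in the model it also called 0 (1 at an unadjusted p under 0.05), so each call named from them was lost there. Of 12 other cell surface amino acid transporters tested 0 passed edgeR's test (3 at an unadjusted p under 0.05, 1 called by DESeq2 and 0 by limma), and their median log2 difference was -0.04. The one DESeq2 called was SLC6A6, the taurine carrier, at 12.1 and 10.2 FPKM (KMS18) and 6.63 and 3.32 FPKM (KMS28BM), with an edgeR adjusted p of 0.0509. SLC1A4, a relative of SLC1A5, was the highest of them in the KMS18 control, at 85.9 and 66.1 FPKM (KMS18) and 60.7 and 67.3 FPKM (KMS28BM), with a fitted difference of -0.10 (edgeR, SE 0.13, adjusted p = 0.693). SLC43A1, another large neutral amino acid carrier, was at 27.96 and 26.9 FPKM (KMS18) and 52.9 and 52.7 FPKM (KMS28BM), with an edgeR adjusted p of 0.59.

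Of 11 lysosomal and organellar transporters 0 passed edgeR's test (4 at an unadjusted p under 0.05, 0 called by DESeq2 or limma), with a median of -0.06. SLC38A10, the highest of them, was at 40.5 and 36.9 FPKM (KMS18) and 64.5 and 59.1 FPKM (KMS28BM). Of 11 mitochondrial carriers SFXN2 alone fell, by 0.57 (edgeR, SE 0.14, adjusted p = 0.0477), and the call was lost under every other edgeR setting, DESeq2 and limma. The median of that list was 0.03. The estimates of the 11 lysosomal and organellar genes ran from -0.64 to 0.47, against 1.08 for SLC36A1.

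The mTORC1 list holds the proteins by which cells sense amino acids at the lysosome. Of 33 tested, 2 rose (FLCN and LAMTOR1) and 1 fell (TSC1), where 3.57% of all genes tested rose and 5.25% fell. At an unadjusted p under 0.05 there were 7 of the 33, against 3919 of 14870 genes, and the median of the list was 0.10. FLCN, which acts on the Rag GTPases, went from 5.85 to 9.19 FPKM (KMS18) and from 6.54 to 12.5 FPKM (KMS28BM), with a fitted difference of 0.79 (edgeR, SE 0.12, adjusted p = 0.0145). LAMTOR1, which anchors the Ragulator complex to the lysosome, went from 45.5 to 70.6 FPKM and from 56.5 to 106 FPKM (0.70, edgeR, SE 0.11, adjusted p = 0.0138). TSC1, part of the complex that restrains the pathway, went from 7.49 to 6.74 FPKM and from 9.19 to 6.32 FPKM (-0.57, edgeR, SE 0.13, adjusted p = 0.0448), and its call was lost with scaling by library totals, with 5 CPM in 2 libraries and with limma. The latter settings also called RRAGA higher (edgeR adjusted p = 0.0542 with the default filter).

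Among 25 regulators of transporter genes MYC and HIF1A fell and 0 rose, where 5.25% of all genes tested fell and 3.57% rose. At an unadjusted p under 0.05 in edgeR there were 4 of the 25, against 3919 of 14870 genes. DESeq2 and limma called 0 regulators higher. With at least 5 CPM in 2 libraries edgeR also called TXNIP higher, which had an adjusted p of 0.0663 in edgeR with the default filter. HIF1A, the oxygen-regulated factor, went from 22.95 to 14.1 FPKM (KMS18) and from 43.3 to 30.6 FPKM (KMS28BM), with a fitted difference of -0.57 (edgeR, SE 0.10, adjusted p = 0.0183). MYC, which binds the E-box, fell by 0.91 (edgeR, SE 0.13, adjusted p = 0.0128) and stood at 63.7% of its control level in KMS18 and 47.1% in KMS28BM. ATF4 mRNA was at 281 and 203 FPKM (KMS18) and 160 and 182 FPKM (KMS28BM), lower in the first line and higher in the second (log2 difference -0.21, edgeR, SE 0.16, adjusted p = 0.464). NFE2L2, which encodes NRF2, differed by 0.07 (edgeR, SE 0.10, adjusted p = 0.728).

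Of 24 enzymes of cystine, glutathione, glutamine and serine metabolism 0 passed edgeR's test, and their median was -0.13. At an unadjusted p under 0.05 in edgeR there were 8, against 3919 of 14870 genes tested. DESeq2 and limma called 0 of the enzymes. ASNS, asparagine synthetase and a widely used marker of amino acid shortage, was at 55.3 and 53.6 FPKM (KMS18) and 207 and 212 FPKM (KMS28BM), with a fitted difference of -0.06 (edgeR, SE 0.10, adjusted p = 0.736). ASNS does not stand for the other listed genes. CHAC1 was at 59.6% of its control FPKM in KMS18 and 138.2% in KMS28BM, and PHGDH at 61.1% and 101.2%. TRIB3, from the regulators, was at 86.4% and 155.1%. GCLC, the first enzyme of glutathione synthesis, for which cystine is needed, had -0.47 (edgeR, SE 0.11, adjusted p = 0.0514), with 15.1 and 14.6 FPKM (KMS18) and 25.7 and 15.2 FPKM (KMS28BM).

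**Figure D4:**
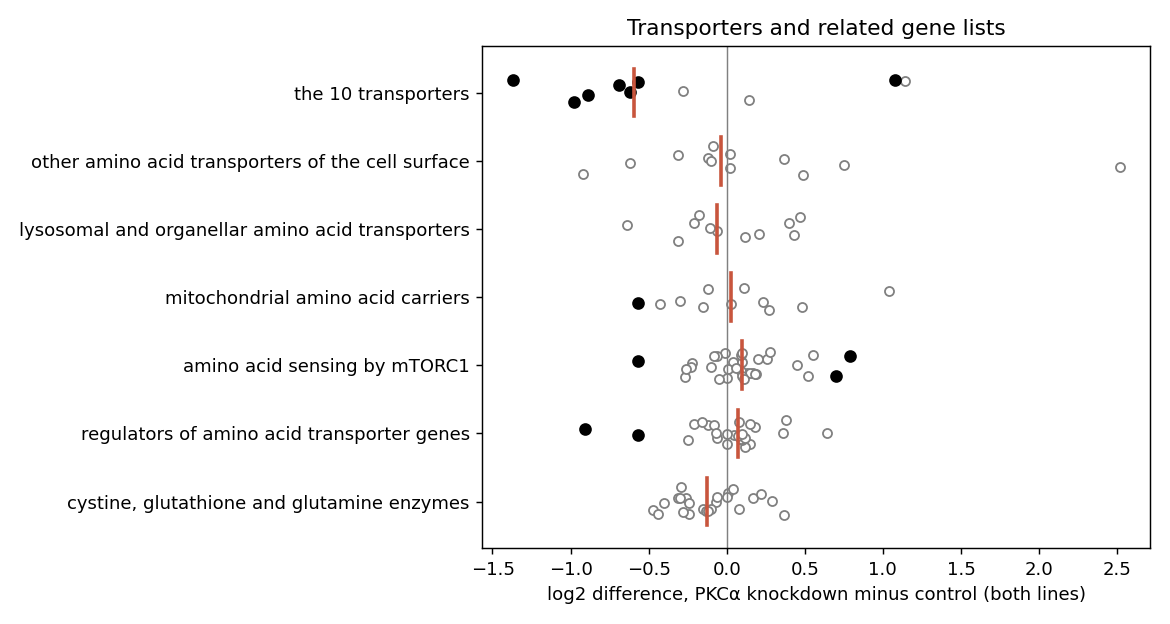
Log2 difference, PKCα knockdown minus control, over both lines for each gene tested (1 point per gene), in the 10 transporters and in the 6 related lists, filled where the edgeR adjusted p is under 0.05. Vertical bars are medians, which ran from -0.60 in the transporters to 0.10 in the mTORC1 list, and vertical scatter within a row has no meaning.

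The genes whose levels over the 4 libraries were most like those of a member were sought among 8622 genes with a mean of 5 FPKM or more, by the largest gap in centred log2(FPKM + 1). For SLC7A5 they were CHST11 (gap 0.13), BHLHA15 (0.18) and MAD2L1 (0.20), which encode a sulfotransferase, a secretory cell transcription factor and a spindle checkpoint protein. CHST11 was at 13.8 and 5.1 FPKM (KMS18) and 21.6 and 11.2 FPKM (KMS28BM). For SLC36A1 they were BCAT2 (0.05), TMED4 (0.07) and LAMTOR1 (0.08). BCAT2, the mitochondrial branched-chain aminotransferase, was at 30.5 and 44.8 FPKM (KMS18) and 38.9 and 72.9 FPKM (KMS28BM). The added 1 shrinks the changes of a low gene such as SLC36A1 more than those of higher genes. With 0.1 added, knockdown minus control was 0.732 (KMS18) and 1.115 (KMS28BM) for SLC36A1, and 0.633 and 0.908 for LAMTOR1. Their log2 ratios of CPM were 0.96 and 1.33 for SLC36A1 and 0.62 and 0.91 for LAMTOR1. With 4 libraries such likeness is a description.

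Earlier results of these data had drawn attention to AGTCTA and its extensions in 3′ UTRs, and the members were searched for them in GENCODE 29 transcripts. Of the 10, SLC7A11 and SLC7A1 hold AGTCTA, against 25.4% of 12775 genes tested, and SLC7A11 holds CAGTCTA, against 8.9%. No member holds AGTCTAA, which 9.1% of genes tested hold and which is present in PRKCA. The other 5 members that fell (SLC7A5, SLC3A2, SLC38A5, SLC38A1 and SLC38A2) hold none of these in an annotated 3′ UTR. The sites are printed with the match in capitals, and the part of this sequence in the results was not tested.
SLC7A11, base 75 of 7859: ttttctgaaAGTCTAgagaattac
SLC7A11, base 846 of 7859: cccctgatgAGTCTAtctaaacat
SLC7A11, base 3444 of 7859: actgtaatCAGTCTAcaggaaaat
SLC7A1, base 1421 of 5070: gttccactgAGTCTActtcaggag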

How the data were processed

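Total RNA of the 4 cultures was made into TruSeq libraries from 100 ng, per the labels' protocols. The authors made and deposited 1 table per library, with the expected count, the FPKM and the mean length of each gene, per the file headers. STAR, Bowtie2, HISAT, GRCh37 and hg19 are named in the submitters' processing notes, with no role, and the program that estimated the counts was not given. Rows with one symbol were added up, and an absent gene counted as 0. Counts were rounded and fitted with edgeR 4.0.16 in R 4.3.3 (quasi-likelihood, TMM, default filter at a minimum count of 10, cell line and construct as terms, Benjamini-Hochberg at 0.05 over 14870 genes). The SE is the log2 difference divided by the square root of F. The fit had 1 residual degree of freedom and a prior of 5.85, and it was run on simulated counts. These had equal changes in both lines and the same variability setting for every gene. Genes on which the lines disagree were therefore not covered. Libraries are paired by their cell line. Deviations of KMS18 from the construct means correlated at 0.951 across genes. That value reflects the difference between the lines and cannot test how the cultures were paired. Nothing says whether the cultures were replicated. Alternatives were DESeq2 1.42.0, limma 3.58.1 on log2(FPKM + 1) and log2(FPKM + 0.1), and other scalings and filters. Intervals on counts are exact binomial at 95% with library totals as offset. Positions come from GENCODE 29 on GRCh38 by gene identifier, and none was converted from the authors' build. The members, lists and tests were chosen with earlier results of these data known. All members, PRKCA, 3 like genes for SLC7A5 and SLC36A1, up to 4 called genes per list and uncalled genes among the 3 highest of a list were to be named. NFE2L2, ASNS, GCLC, CHAC1, PHGDH, TRIB3, SLC6A6, TXNIP, RRAGA and CD38 were named after their values were seen. The test results of the cell type markers were also added after they were seen.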

Additional observations from a re-analysis of the deposited data

Results flagged for a closer look

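SLC1A5 and SLC7A1 moved in opposite directions in the lines, which drew attention to them. The difference of log2(FPKM + 1), knockdown minus control, was -0.55 for SLC1A5 in KMS18 and 0.15 in KMS28BM. For SLC7A1 it was -0.14 in KMS18 and 0.55 in KMS28BM. The median over all genes tested was 0.04 in each line on this scale. The difference between the lines was not tested, since each line has 1 library per construct, and 28.7% of genes tested moved in opposite directions.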

How the results depend on the processing

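The 6 lower calls and the 1 higher call among the transporters were made for the same genes with median of ratios scaling, 5 CPM in at least 2 libraries, DESeq2 and both limma settings. Scaling by library totals left 5 lower calls, without SLC38A2. With no filter on low counts edgeR made 2 lower calls and 1 higher call. Without the cell line as a replicate block edgeR made 0 lower and 0 higher calls (1 member, and 215 of all genes, at an unadjusted p under 0.05). For SLC7A5 that fit gave -1.31 (SE 0.45). In each line alone the 7 called members had the same direction, as values with no test. Over the 6 related lists 4 lower and 2 higher calls became 2 lower with library totals, with 5 CPM (and 4 higher) and with limma on log2(FPKM + 1) and on log2(FPKM + 0.1). They became 0 lower and 0 higher with no filter in edgeR (27 at an unadjusted p under 0.05) and without the replicate block in edgeR (1 at an unadjusted p under 0.05). Without construct in the model, 3 transporters were called higher in KMS28BM in place of 8, and the difference of SLC38A2 between lines, 0.03 and not called, was -0.008. Within a line, a ratio of counts moved SLC36A1 and SLC38A2 beyond counting error from FPKM with either pseudocount, while for SLC7A11 in KMS18 and SLC6A9 in KMS28BM log2(FPKM + 0.1) lay inside the counting interval and log2(FPKM + 1) did not. Members with both KMS28BM libraries above both KMS18 libraries were 4 on TMM-scaled CPM, an alternative chosen after seeing the data, in place of 7 in FPKM. Over all genes, the 781 lower and 531 higher calls became 407 and 480 with library totals, 243 and 124 with no filter, and 487 and 542 with limma on log2(FPKM + 1). The cause of these changes was not tested. A called count for a single line could not be given. With 494 or more counts for each member in each library, counting error was small, and 1 library per group allows no replicate error within a line.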
